A study of Mus musculus with 5 samples.

Results

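The mitochondrial ribosomal protein genes of mouse Th2 cells, named Mrpl for the large subunit and Mrps for the small subunit, were examined by RNA Polymerase II ChIP-Seq. A gene belonged to the set if its symbol began with Mrpl or Mrps and a digit and if SICER had called an enriched interval for it in either Parp14+/+ library. These criteria gave 47 genes, 27 Mrpl and 20 Mrps, of 7971 genes with such an interval and of 11608 genes in the table. The genes were thus selected on measured values of the Parp14+/+ and Parp14+/+ + PJ34 libraries, so their signal in those libraries, and every ratio that holds them, is given as a description and not as a test. PARP-14 is an ADP-ribosyltransferase that acts with STAT6 in Th2 cells, and the study asked which genes depend on it or on ADP-ribosyltransferase activity for transcription.

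Naive CD4+ CD62L+ T cells from spleens of C57BL/6 mice, either Parp14+/+ or Parp14-/-, were activated through CD3 and CD28 for 3 days under Th2 conditions (IL-4 at 10 ng/ml and an antibody to IFN-γ). The cultures were then expanded for 4 days with IL-2 and IL-4. For each genotype there was 1 library from untreated cells and 1 from cells given PJ34, a small-molecule inhibitor that is not specific to any member of the PARP family. PJ34 was labelled as 10 µM on differentiated cells. A lower dose, present during culture, is described elsewhere for the study, so dose and timing are uncertain. The labels do not state an age or the number of mice behind a library. The antibody recognised RNA Polymerase II phosphorylated on serine 2, the form that elongates through genes. An Input library from a mixture of both genotypes was used by the authors to call intervals.

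Mammalian mitochondria carry their own ribosome, which translates the few mRNAs of the mitochondrial genome into membrane subunits of the respiratory chain. Its protein subunits are all encoded in the nucleus, transcribed by RNA Polymerase II, made in the cytosol and imported. About the core proteins that descend from bacterial ribosomes lies a shell of proteins found only in mitochondria. T cells enlarge their mitochondria on activation, and the respiratory chain they need then depends on this ribosome.

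The unit throughout is the average peak height, the number of overlapping fragments at the highest point of each active region, averaged over the gene's active regions. This height is a maximum and not a sum along the gene. A longer region still holds more positions at which a maximum can arise, and the relation of height to gene length was not tested. The 4 values of a gene are always listed with both Parp14+/+ libraries first and both Parp14-/- libraries second, and within each genotype with the untreated library before the PJ34 library. As each condition had 1 library, no difference has a replicate check and no p-value is given. Beside each ratio stands a 95% Clopper-Pearson interval computed from summed heights, which covers counting error only. The cultures are bulk samples, in which fewer cells of a type and less polymerase per cell cannot be told apart.

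The libraries held between 8841 and 12014 intervals, with a median height of 9 in each. Parp14 itself, at chr16:35832964-35871586 (mm9, minus strand), had heights of 8, 11, 6.67 and 6.67. Intervals covered 22873, 20836, 2686 and 3286 bases of it. The Parp14-/- libraries thus had far fewer called bases over the gene, though not none, while the heights differed less. Of 7 Th2 markers 6 had a line, with an interval in 6, 6, 5 and 5 of them, and their summed heights were 327, 273, 266 and 215.5. Il5 had no interval in either Parp14-/- library. Il4ra, at 132, 110, 160 and 130, was higher in untreated Parp14-/- than in untreated Parp14+/+. The other Th2 markers with a line were lower there. An interval was called for 5, 4, 3 and 3 of the 5 T cell markers, whose summed heights were 52.5, 62.5, 53.5 and 44.5. Neither of 2 CD8 T cell markers had a line, and of 6 myeloid markers only Csf1r did, at 8, 8.5, 6 and 5.5. Of 5 B cell markers only Cd79a had one, at 38, 36, 34 and 28, from an active region that is also assigned to Rps19 and Arhgef1.

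Most mitochondrial ribosomal protein genes carried low signal. The median height was 9, 10, 9 and 8.33 in the 4 libraries, against 10, 10, 9.5 and 9 for all 7971 genes. For comparison, 75 cytosolic ribosomal protein genes had medians of 30, 24, 25 and 25, and 55 genes of oxidative phosphorylation had 9.5, 9.5, 8 and 8. The mitochondrial set thus lay at the level of the respiratory chain genes and well under the cytosolic ribosome. The genes were short, with a median length of 7090 bp against 17957 bp for all genes.

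**Figure D1:**
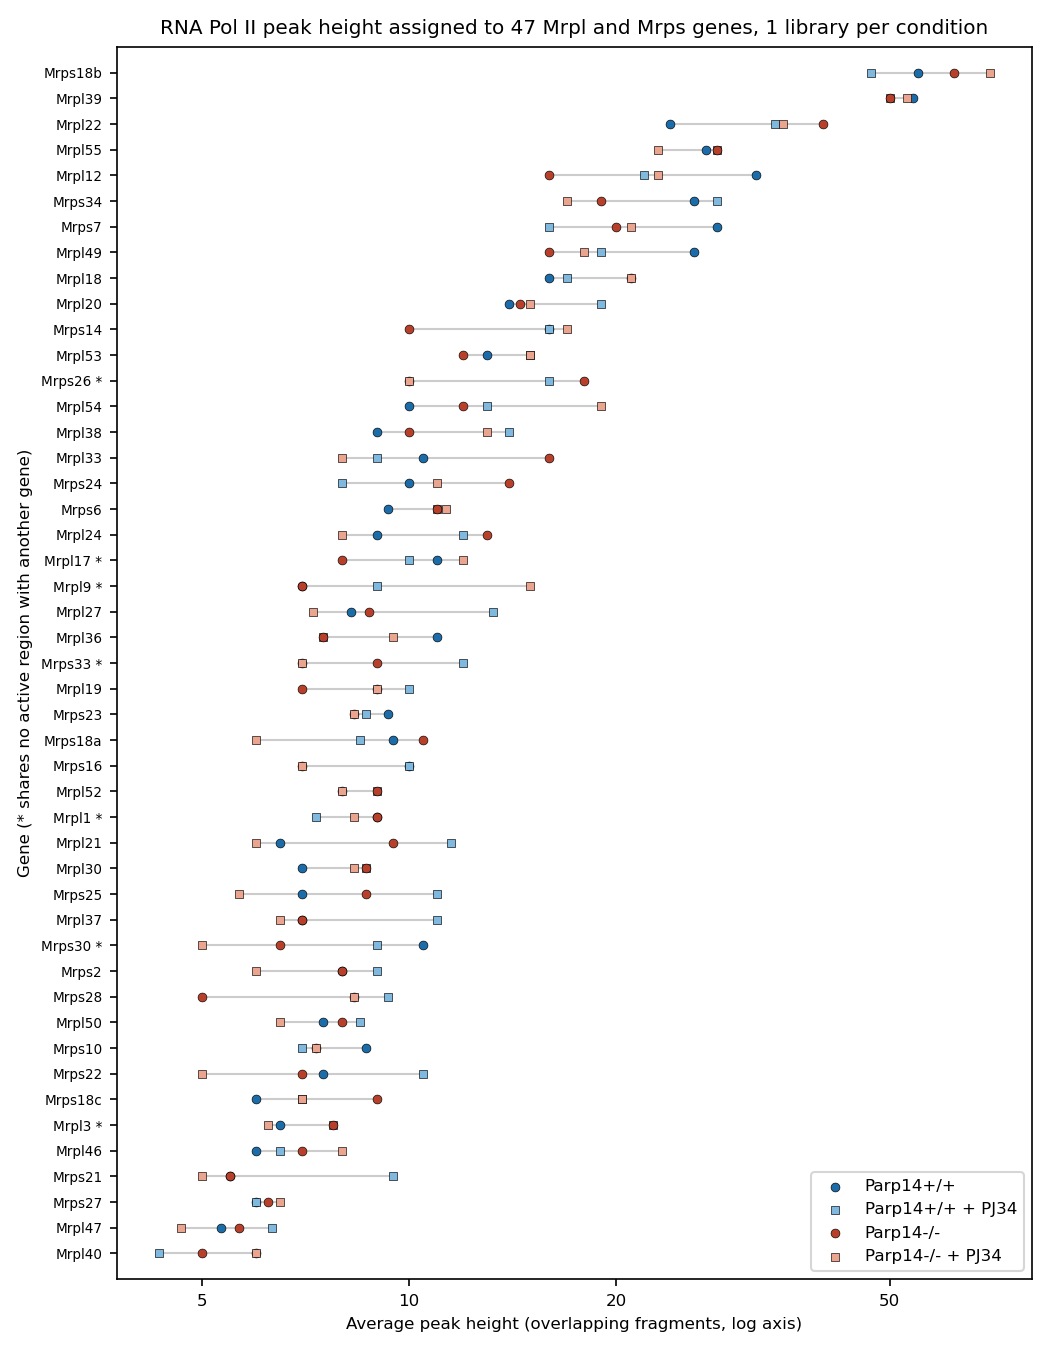
Average peak height (log axis) of the 47 genes in the 4 libraries, ordered by their mean over the libraries, with 1 point per library and a grey line from the lowest to the highest value. Mrps18b and Mrpl39 stand at 47 or more in every library, 15 genes lie under 10 in all 4, and asterisks mark the 7 genes that share no active region.

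Where the signal came from was resolved by matching genes to active regions. A region was assigned to each gene that it touched between 2500 bp upstream of the start and 5000 bp downstream of the end, a window that returned the deposited number of regions for 11604 of 11608 genes and for all 47 members. By this assignment 40 of the 47 genes (85.1%) shared a region with at least 1 other gene, compared with 77.0% of all genes. The exceptions were Mrpl1, Mrpl17, Mrpl3, Mrpl9, Mrps26, Mrps30 and Mrps33. In 19 of the 47 (40.4%, compared with 27.3% of all genes) the values in all 4 libraries were identical to those of an adjacent gene. For these genes the table alone does not tell which gene the polymerase was on.

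The 8 genes with the highest mean heights were Mrps18b, Mrpl39, Mrpl22, Mrpl55, Mrpl12, Mrps34, Mrps7 and Mrpl49, and each shared its region. Mrps18b, 1 of 3 mammalian relatives of bacterial S18 (chr17:36047330-36053314, minus strand), had heights of 55, 47, 62 and 70. Its tallest summit lay at -639, -607, -639 and -639 bp from its start, beyond the start of Ppp1r10, a nuclear regulator of protein phosphatase 1 that begins 65 bp away on the opposite strand. Mrps18b itself was covered by intervals over 2985, 3214, 5385 and 4264 of its 5985 bases, so polymerase was also called along the gene.

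Mrpl39 (chr16:84717823-84735468, minus strand) had heights of 54, 50, 50 and 53, the steadiest of the tall values. Its summit lay 17131, 16363, 17867 and 16491 bp from the start of a gene of 17646 bp, that is, around its 3′ end. The region was shared with Mirn155, the precursor of miR-155, a microRNA of activated lymphocytes. Mrpl22, related to the bacterial protein that lines the exit tunnel (chr11:57985163-57993067, plus strand), had heights of 24, 34, 40 and 35. No interval touched the Mrpl22 gene in any library. The tall summit stood 36790, 36854, 36854 and 36886 bp downstream of its start, in a region of 44700 bp shared with Igtp and Irgb10, both interferon-inducible GTPases.

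Mrpl55 (chr11:59016019-59019504, plus strand), a subunit found only in mitochondria, had heights of 27, 28, 28 and 23. Its summit stood 6030, 5678, 5838 and 5806 bp from its start, past the end of the gene and in a region shared with Arf1. Mrps34 (chr17:25032065-25033219, plus strand), another mitochondria-specific subunit, had heights of 26, 28, 19 and 17. The gene of 1155 bp was covered end to end in every library, while its summit lay at 1536, 1536, 2000 and 1600 bp, just beyond its end. Both Parp14+/+ values were above both Parp14-/- values.

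Mrps7, the S7 homologue that binds the small-subunit rRNA (chr11:115465465-115468938, plus strand), had heights of 28, 16, 20 and 21. They came from a region of 133800 bp that is also assigned to Grb2 and Gga3, among other genes. The tallest interval that touched Mrps7 itself reached 9, 14, 13 and 16, with summits 1640, -152, 9000 and 8680 bp from the start. In the Parp14-/- libraries that summit lay past the end of the gene of 3474 bp. Parp14+/+ had a summit of 13 at 8744 bp too, but in a separate interval that did not touch Mrps7. Neither set of 4 values thus gives the order of signal on the gene. Mrpl49 (chr19:6053630-6057751, minus strand) had heights of 26, 19, 16 and 18, and its tallest summit lay at -3466, -3434, -3498 and -3482 bp, in a region shared with Fau, Syvn1, Znhit2 and Tm7sf2.

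Mrpl12 had its tallest summit close to its own start in every library. It encodes the L7/L12 protein of the ribosomal stalk, which recruits translation factors, and it lies at chr11:120345983-120350068 on the plus strand. Its heights were 32, 22, 16 and 23, highest in untreated Parp14+/+ cells and lowest in untreated Parp14-/- cells. The tallest summit was at -30, -94, -62 and -30 bp from the start, and Mrpl12 was the only gene of the 47 with a summit within 500 bp of the start in all 4 libraries. The region was also assigned to Slc25a10, the mitochondrial dicarboxylate carrier, and Hgs. Its 4 values were identical to those of an adjacent gene, so they do not tell which gene the polymerase was on. The Parp14+/+ to Parp14-/- ratio was 2.00 (95% interval 1.07 to 3.90), the largest of the set, and between the PJ34 libraries it was 0.96 (0.51 to 1.80). The untreated genotypes thus lay further apart than the treated ones, and that difference was not tested. The sequence just upstream of its first annotated exon is shown as part of this start. It holds the summits at -94 and -62 bp of Parp14+/+ + PJ34 and Parp14-/-, while the summits at -30 bp of the other libraries lie beyond its end (chr11:120345827-120345926, mm9, plus strand).

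Mrpl12, bases -156 to -57: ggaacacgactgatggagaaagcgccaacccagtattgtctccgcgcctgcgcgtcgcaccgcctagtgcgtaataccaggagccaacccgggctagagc

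Over the set, a summit within 500 bp of the gene start was found for 13, 12, 11 and 9 of the 47 genes in the 4 libraries, or 27.7%, 25.5%, 23.4% and 19.1%. The share over all genes was 17.4%, 17.8%, 17.3% and 17.6%. By name these were 8, 7, 7 and 9 of the 27 Mrpl genes (29.6%, 25.9%, 25.9% and 33.3%). Of the 20 Mrps genes they were 5, 5, 4 and 0 (25%, 25%, 20% and 0%). The names thus lay apart mainly in Parp14-/- + PJ34, a single library, and that difference was not tested. In all, 27 genes had such a summit in at least 1 library. Among the tallest summits assigned to each gene in Parp14+/+, 17 lay in the gene, 8 upstream and 18 downstream. In Parp14-/- the numbers were 8, 10 and 14.

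**Figure D2:**
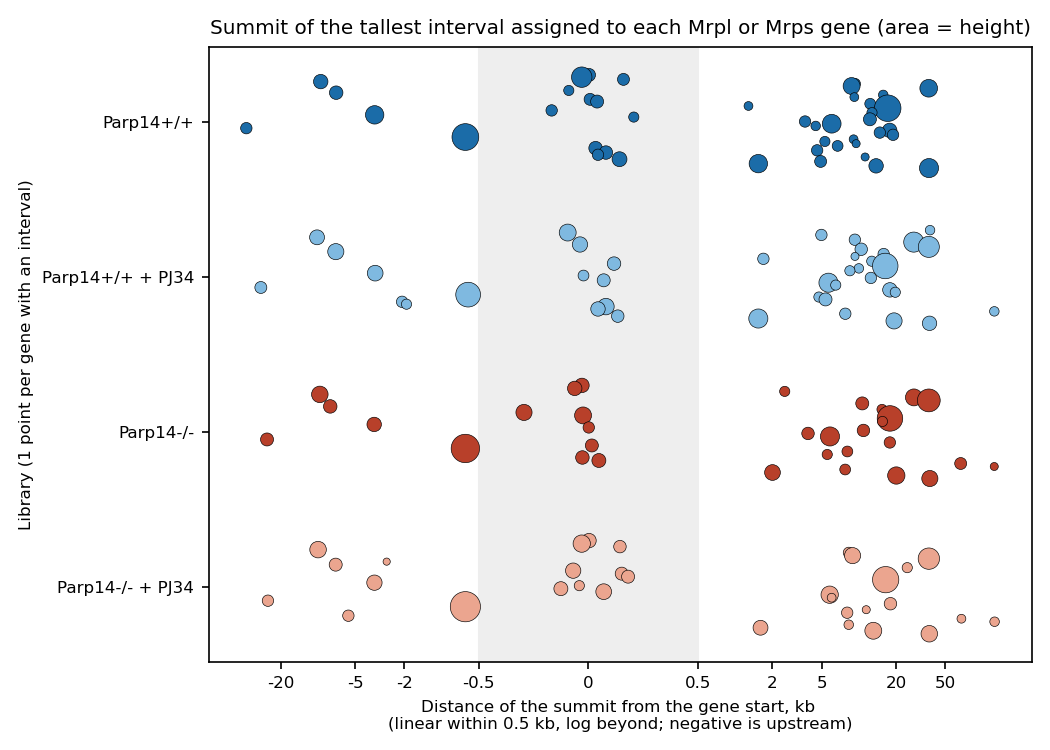
Distance from the gene start (kb, linear within 0.5 kb and log beyond) of the tallest interval assigned to each gene, with 1 row per library, 1 point per gene with an interval and point area proportional to height. Only the points in the grey band lie within 0.5 kb of the start, and the tallest, those of Mrps18b and Mrpl39, lie outside it in every library.

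The gene starts themselves shared sequence features that played no part in the choice of genes. A window of 300 bp, from 250 bp before the start to 50 bp after it, was searched in the mm9 genome on both strands for CCGGAAG, a core bound by ETS-family factors such as GABP, for GCATGCGC, a core of the NRF1 site, for AAGATGGC, a core of the YY1 site, for GGGCGG, the GC box of SP1, and for CCAAT. No motif contains another. GABP, NRF1 and YY1 are known regulators of nuclear genes for mitochondria. The ETS-type core was found in 24 of 47 windows (51.1%) compared with 18.6% of the windows of all 7971 genes. The NRF1-type core was in 7 (14.9%, compared with 4.84%) and the YY1-type core in 8 (17.0%, compared with 6.02%). At least 1 of these 3 cores was present in 32 of 47 windows (68.1%, compared with 26.5%).

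The other motifs were not more frequent. GGGCGG was in 46.8% of the windows compared with 60.5% of all, and CCAAT in 31.9% compared with 35.9%. The median GC content was 61.0% in the set and 61.3% in all genes. Cytosolic ribosomal protein genes had the ETS-type core in 42.7% and the NRF1-type core in 8%, and oxidative phosphorylation genes had them in 29.1% and 14.5%. A match describes the letters and does not show that a factor was bound.

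To show the bases around the core, the ETS-type matches of 8 genes named elsewhere in the results are given with 10 bases on each side, read in the direction of the motif, with the core in capitals and the mm9 position of the printed bases. The first base of the gene is counted as 0, and the match of Mrpl18 is the farthest of those shown. Among those not shown, Mrpl17, Mrps18c and Mrpl38 had theirs at -237, -156 and -142.

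Mrps16, core at -9 to -3, chr14:21212770-21212796, plus strand: agcctgaagcCCGGAAGagcgccccca
Mrps26, core at -14 to -8, chr2:130389469-130389495, minus strand: tgcgcccggcCCGGAAGtggccgcgga
Mrpl33, core at -24 to -18, chr5:31916311-31916337, plus strand: cgcgcatgccCCGGAAGtagtcgttga
Mrps18b, core at -28 to -22, chr17:36053326-36053352, plus strand: gtacggcctgCCGGAAGagcgactgcg
Mrps22, core at -31 to -25, chr9:98502093-98502119, minus strand: acctctcgagCCGGAAGttgctctatc
Mrpl22, core at -50 to -44, chr11:57985103-57985129, plus strand: ttttccggtcCCGGAAGccggcctcgg
Mrpl27, core at -55 to -49, chr11:94515040-94515066, plus strand: tccgcaagacCCGGAAGtagatctatc
Mrpl18, core at -240 to -234, chr17:13109181-13109207, minus strand: actgaaaacgCCGGAAGtagggggctg

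The listed NRF1-type matches lay upstream of the start. In Mrpl22 and Mrps18b they stood near the ETS-type core of the same gene, whereas in Mrpl17 the NRF1-type core was at -11 and the ETS-type core at -237. The YY1-type matches lay elsewhere. In 6 of the 7 genes whose YY1-type match is listed, the exception being Mrpl36, it lay after the start and in the direction of the gene. These are shown for the genes described elsewhere, again with the core in capitals.

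Mrpl22, NRF1-type core at -30 to -23, chr11:57985123-57985150, minus strand: ctgactatacGCATGCGCagtccgaggc
Mrps18b, NRF1-type core at -43 to -36, chr17:36053340-36053367, minus strand: cgtgtcccgaGCATGCGCagtcgctctt
Mrps7, YY1-type core at 7 to 14, chr11:115465462-115465489, plus strand: gacagcggccAAGATGGCtgcccccgcg
Mrpl49, YY1-type core at 12 to 19, chr19:6057722-6057749, minus strand: ttgaggcgccAAGATGGCagcagcggtg
Mrps18b, YY1-type core at 3 to 10, chr17:36053294-36053321, minus strand: ggtgtgcgtcAAGATGGCtgcccccttg

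Gene arrangement was also compared. In 14 of 47 (29.8%) another protein-coding gene started on the opposite strand within 1000 bp upstream, compared with 11.8% of all genes, 25.5% of oxidative phosphorylation genes and 13.3% of cytosolic ribosomal protein genes. The pairs included Mrps18b with Ppp1r10, Mrpl49 with Fau, Mrps7 with Gga3, Mrpl21 with Ighmbp2, Mrpl40 with Hira and Mrpl46 with Mrps11, a further mitochondrial ribosomal gene that begins 30 bp away and had no interval in either Parp14+/+ library.

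**Figure D3:**
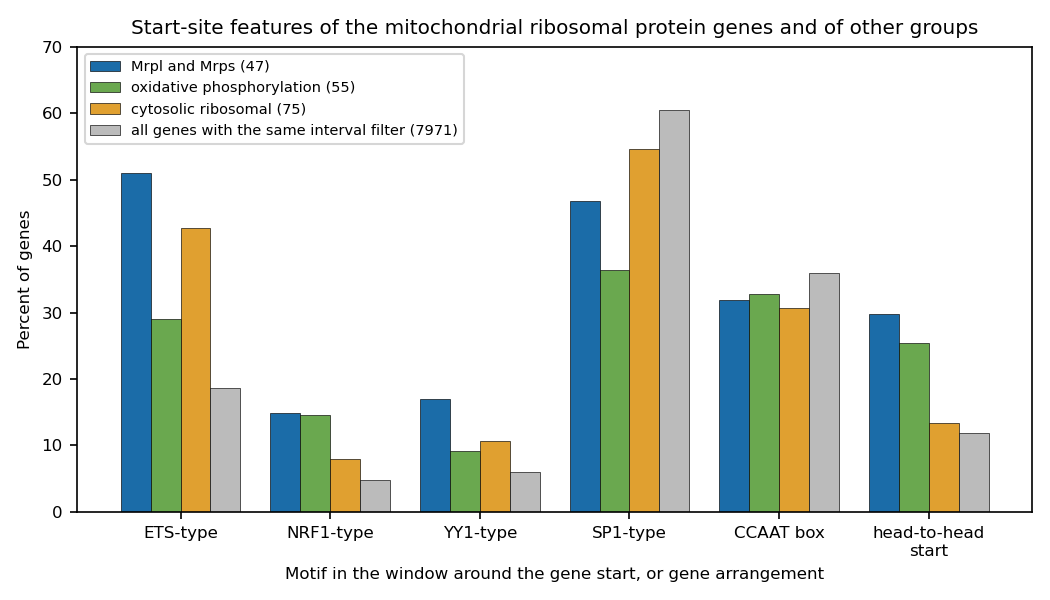
Percent of genes with each motif in the 300 bp window around the start, or with a head-to-head start within 1000 bp, for the 47 mitochondrial ribosomal protein genes, 55 oxidative phosphorylation genes, 75 cytosolic ribosomal protein genes and all 7971 genes. The ETS-type core reaches 51.1% in the mitochondrial set and 18.6% in all genes, while the GC box is less frequent in the set than in all genes.

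To ask how the set depended on PARP-14, heights were compared between genotypes. Dividing the Parp14+/+ height by the Parp14-/- height gave a median of 0.96 over the 47 genes, with a 95% order-statistic interval of 0.89 to 1.07, and of 1.04 over 7963 genes. The ratio was above 1 in 17 genes, below 1 in 25 and equal in 5. With the outer bounds of the study alone, and without its further rule for smaller ratios, 7 genes (14.9%) were above 1.4, where 13.2% of all genes were, and 6 (12.8%) were below 0.7, where 9.05% of all genes were. Both shares were near the background. Only Mrpl12 had an interval that left out 1, compared with 3.00% of all genes. By name the median was 0.94 for Mrpl and 1.00 for Mrps, with intervals that overlapped.

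Those above 1.4 were Mrpl12, Mrpl36, Mrpl49, Mrps14, Mrps16, Mrps28 and Mrps30, and those below 0.7 were Mrpl21, Mrpl22, Mrpl24, Mrpl33, Mrps18c and Mrps26. Among genes whose heights summed to 20 or more in the taller library, the highest ratios after Mrpl12 belonged to Mrps28, Mrpl49 and Mrps30. Mrps28 (chr3:8802154-8923823, minus strand) had heights of 8.33, 9.33, 5 and 8.33 and a ratio of 1.67 (0.85 to 3.40). The interval of height 17 at its start, 142 bp into the gene, was called in Parp14+/+ alone. Mrpl49 had a ratio of 1.62 (0.84 to 3.24) from the summit near Fau. Neither interval left out 1.

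The lowest ratios in the same range belonged to Mrpl22, Mrpl33, Mrpl18 and Mrpl30. That of Mrpl22 was 0.60 (0.35 to 1.02) and came from the region of Igtp and Irgb10. Mrpl33 (chr5:31916345-31925014, plus strand), the homologue of bacterial L33, had heights of 10.5, 9, 16 and 8 and a ratio of 0.66 (0.36 to 1.17). On its own start the summits were 11 in Parp14+/+ and 22 in Parp14-/-, at 8 and -24 bp, and no interval was called there in Parp14-/- + PJ34. Mrpl30 (chr1:37947398-37955178, plus strand), the L30 homologue, had heights of 7, 8.67, 8.67 and 8.33 and a ratio of 0.81 (0.43 to 1.49). A summit at its start, which faces Mitd1, was called in the Parp14-/- libraries alone, at 20 and 18. Mrpl18, the L18 homologue at chr17:13104221-13108957, had heights of 16, 17, 21 and 21 from a region shared with Tcp1, a subunit of the cytosolic chaperonin, and a ratio of 0.76 (0.37 to 1.53).

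Between the PJ34 libraries the genotype ratio was higher over all genes and in the set alike. It had a median of 1.08 (0.97 to 1.27) over the 47 genes and 1.16 over 7965 genes. Above 1.4 were 14 genes (29.8%), where 23.5% of all genes were, and below 0.7 were 3 (6.38%), where 4.56% were. With the libraries scaled to a median ratio of 1 over all genes, the median of the set was 0.93, 9 genes (19.1%, where 12.5% of all were) lay above 1.4 and 8 (17.0%, where 10.8% were) below 0.7. By name, 10 of the 14 unscaled genes were Mrps and 4 Mrpl, which is 50.0% of the Mrps and 14.8% of the Mrpl genes. The median was 1.27 for Mrps (0.95 to 1.65) and 1.06 for Mrpl (0.88 to 1.24), with intervals that overlapped. The counting interval left out 1 for Mrpl27, Mrps25 and Mrps18b, compared with 3.60% of all genes.

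**Figure D4:**
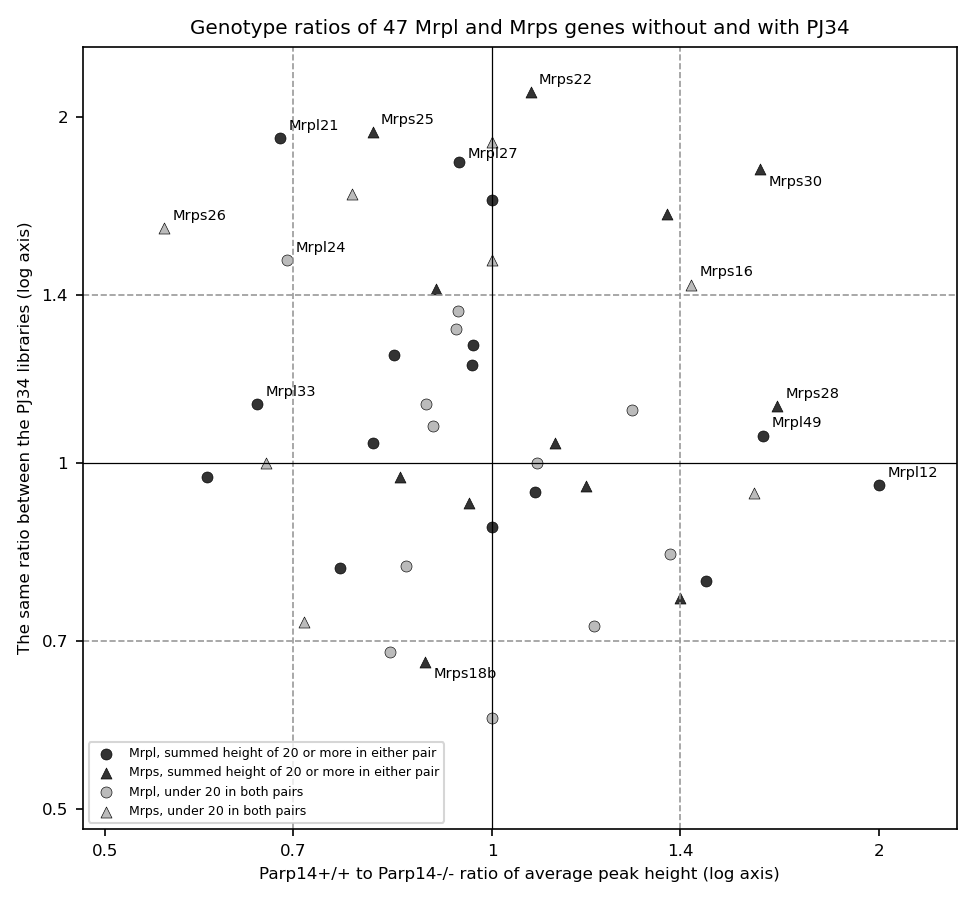
Parp14+/+ to Parp14-/- ratio of average peak height between untreated libraries (horizontal, log axis) and between PJ34 libraries (vertical, log axis) for the 47 genes, with dashed lines at 0.7 and 1.4. Only Mrps16 and Mrps30 lie above 1.4 on both axes, none lies below 0.7 on both, and Mrpl21, Mrpl24 and Mrps26 lie in the upper left corner.

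Among genes whose heights summed to 20 or more in the taller PJ34 library, the highest ratios belonged to Mrps22, Mrps25, Mrpl21 and Mrpl27. Mrps25 (chr6:92119506-92134017, minus strand) had heights of 7, 11, 8.67 and 5.67 and a ratio of 1.94 (1.05 to 3.72). A summit at its start, 80, 80 and 48 bp into the gene, measured 14, 21 and 15 in the first 3 libraries, and no interval was called over the gene in Parp14-/- + PJ34. Mrps22 (chr9:98489156-98502078, minus strand), mutated in a human mitochondrial disease, had heights of 7.5, 10.5, 7 and 5 and a ratio of 2.10 (0.95 to 4.99). Its tallest interval over the gene was 9, 13, 8 and 5, so the gene body itself gave the same order. Mrpl27 (chr11:94515105-94521401, plus strand), the L27 homologue next to the peptidyl transferase centre, had heights of 8.25, 13.25, 8.75 and 7.25. Its ratio was 1.83 (1.14 to 2.98), and the tallest of its intervals lay upstream, at -7104, -7152, -7936 and -7168 bp, in a region that other genes share. In Parp14-/- a second interval of the same height, 14, stood 32 bp into Mrpl27 itself.

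Under the same minimum of 20, the lowest ratios with PJ34 belonged to Mrps18b, Mrps7, Mrpl18 and Mrpl1. Below that minimum Mrpl9 had the lowest ratio of the set, 0.60. Mrps18b was 0.67 (0.45 to 0.99), from the summit beyond the start of Ppp1r10. Mrps7 was 0.76 (0.37 to 1.53) and Mrpl18 0.81 (0.40 to 1.61). Mrpl1, the homologue of the L1 stalk protein at chr5:96639134-96695728, had heights of 9, 7.33, 9 and 8.33 and shared no region. Its ratio was 0.88 (0.47 to 1.63). A summit of 13, 16 and 16 stood at 3, -29 and 3 bp from its start in Parp14+/+, Parp14-/- and Parp14-/- + PJ34, and none was called there in Parp14+/+ + PJ34.

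The genotype pairs were also read together. Both ratios were above 1 in 8 genes (17.0%, where 36.5% of all genes were) and below 1 in 8 (17.0%, where 13.6% were). Above 1.4 in both were 2 genes (4.26%, where 4.22% of all were), Mrps16 and Mrps30. Below 0.7 in both was none, where 1.17% of all genes were. Mrps16, homologue of bacterial S16 and a gene of inherited mitochondrial disease (chr14:21210453-21212777, minus strand), had heights of 10, 10, 7 and 7. Its ratio was 1.43 (0.49 to 4.42) in each pair. Intervals over it were called in untreated Parp14+/+ alone, and the tallest summit assigned to it lay 14792 bp downstream. Mrps30 (chr13:119168917-119176059, minus strand), which despite its name sits in the large subunit, had heights of 10.5, 9, 6.5 and 5, highest in both Parp14+/+ libraries. Its ratios were 1.62 (0.77 to 3.51) and 1.80 (0.79 to 4.36). It shares no region with another gene, and the tallest interval touching it, whose summit lay inside the gene in Parp14+/+ and beyond its end in the other libraries, was 11, 10, 9 and 7. Heights of Mrps30 thus fell in the same order by both measures, within counting intervals that held 1, while the bases covered (2034, 1584, 1434 and 1734) were fewest in untreated Parp14-/-.

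In 3 genes (6.38%) the genotype ratio was below 0.7 without PJ34 and above 1.4 with it. Of all genes 1.90% were past opposite bounds in the 2 pairs, in either order. Mrps26, a mitochondria-specific subunit that shares no region (chr2:130389493-130391130, plus strand), had heights of 10, 16, 18 and 10. Its ratio was 0.56 (0.23 to 1.27) without and 1.60 (0.68 to 3.94) with PJ34. Summits of 10 and 16 stood 44 bp into the gene in the Parp14+/+ libraries, but no interval was called for it in either Parp14-/- library. Its height of 18 in untreated Parp14-/- was thus higher than that of both libraries with an interval. Mrpl21, the L21 homologue (chr19:3283047-3292837, plus strand), had heights of 6.5, 11.5, 9.5 and 6 and an interval only in Parp14+/+ + PJ34, where a summit of 18 stood at -38 bp. It entered the set through that library alone, so the criterion for entry favours its ratio with PJ34. Mrpl24, the L24 homologue (chr3:87723466-87727586, plus strand), had heights of 9, 12, 13 and 8 in a region shared with Hdgf and Isg20l2. The heights of 12 and 13 came from summits 10455 and 10663 bp from its start, past the end of the gene of 4121 bp. The tallest interval over Mrpl24 itself was 8 in both Parp14+/+ libraries, and none was called over it in the Parp14-/- libraries.

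The effect of PJ34 within a genotype was described in the same way. The genotype and PJ34 comparisons share libraries, so they are not independent. In Parp14+/+ cells the height without PJ34 divided by that with it had a median of 0.89 (0.84 to 1.00), compared with 0.96 over all genes. Above 1.4 were 3 genes (6.38%, where 6.95% of all were), and below 0.7 were 8 (17.0%, where 10.4% were). The 3 were Mrpl12, Mrpl36 and Mrps7, and the 8 were Mrpl21, Mrpl27, Mrpl37, Mrpl38, Mrps21, Mrps25, Mrps26 and Mrps33. Only Mrpl27 had a counting interval that left out 1, at 0.62 (0.39 to 0.98), where 1.66% of all genes did.

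In Parp14-/- cells the median ratio of untreated to PJ34 was 1.04 (0.96 to 1.21), compared with 1.08 over all genes. Above 1.4 were 6 genes (12.8%, where 14.3% of all were), and below 0.7 were 6 (where 5.66% of all were). Mrpl33 alone had an interval that left out 1, at 2.00 (1.07 to 3.90), where 1.58% of all genes did. Mrpl21, Mrps25 and Mrps26 were thus below 0.7 in Parp14+/+ cells and above 1.4 in Parp14-/- cells, and that difference between genotypes was not tested. The share of all genes with such a pair of ratios was not determined, so nothing is read from this count.

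The called intervals gave a measure that does not average over regions. They covered 28.2%, 19.4%, 17.4% and 13.0% of the bases of the 47 genes, which total 606791 bp. Over all genes they covered 23.6%, 19.1%, 16.9% and 15.0%. The covered bases of the set numbered 171095, 117877, 105554 and 78711, of which Mrps6 alone held 34370, 26442, 29870 and 25392. Coverage was highest in untreated Parp14+/+ cells and lowest in Parp14-/- + PJ34, in the set and over all genes. The total number of bases called over the genome was 98096550, 82358400, 73813950 and 65545800, and its part in the coverage of the set was not tested. The median height of the tallest interval over a gene was 10, 12, 14 and 15 in the set and 12, 13, 13 and 13 over all genes, in each library among the genes that had one, which are not the same genes.

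An interval lay over the gene in 35, 29, 26 and 25 of the 47 genes, or 74.5%, 61.7%, 55.3% and 53.2%, where 77.2%, 74.3%, 62.1% and 59.1% of all genes had one. In 15 of them it did so in all 4 libraries, among them Mrps34, Mrps7, Mrpl54, Mrpl17 and Mrpl39, and in 5 it did so in none, namely Mrpl20, Mrpl22, Mrpl46, Mrps18c and Mrps21. No interval was assigned in Parp14-/- for 16 genes (34.0%, where 27.8% of all genes had none) and in Parp14-/- + PJ34 for 17 (36.2%, where 31.2% had none). In neither Parp14-/- library was one assigned for 10 genes (21.3%, where 21.2% had none). An interval in at least 1 Parp14+/+ library was the criterion for entry, for the set and for all 7971 genes alike, so nothing is read from these losses.

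**Figure D5:**
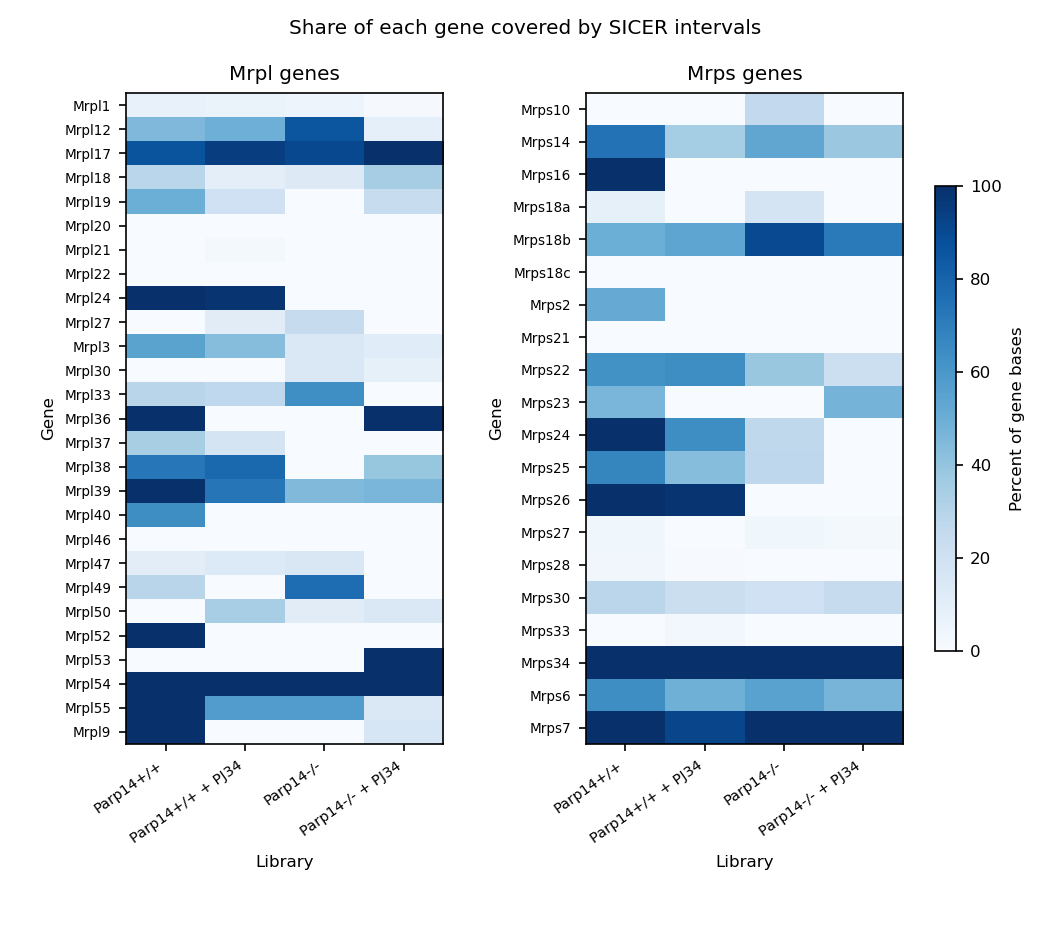
Percent of the bases of each gene covered by SICER intervals (color scale from 0 to 100) in the 4 libraries, with 27 Mrpl genes on the left and 20 Mrps genes on the right. Mrps34 and Mrpl54 are covered in full in every library. Mrps26, Mrpl24 and Mrps2 are among the genes covered in Parp14+/+ libraries only, and Mrpl30, Mrps10 and Mrpl53 are covered in Parp14-/- libraries only. An interval in a Parp14+/+ library was the criterion for entry.

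The 10 genes without an interval in either Parp14-/- library were Mrpl21, Mrpl37, Mrpl40, Mrpl46, Mrpl52, Mrps16, Mrps2, Mrps21, Mrps26 and Mrps33, and their heights there ran from 5 to 18. Mrpl37, a mitochondria-specific subunit (chr4:106728487-106739450), had heights of 7, 11, 7 and 6.5. Mrps33 (chr6:39751803-39760935), also mitochondria-specific, had 7, 12, 9 and 7, with a summit of 12 standing 134 bp into the gene in Parp14+/+ + PJ34. Mrps21 (chr3:95666575-95675383), the S21 homologue, had 5.5, 9.5, 5.5 and 5. In these 3 genes the Parp14+/+ + PJ34 library was the highest of the 4. Mrps33 had its only interval in that library, so the criterion for entry favours this order there. The share of all genes highest in that library was not determined, so nothing is read from the count.

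Apart from Mrps16, Mrps26 and Mrpl21, whose values are given above, the remaining genes spanned at most 3 fragments. Mrpl40 (chr16:18872310-18876730) had heights of 6, 4.33, 5 and 6, the lowest mean of the set, and Mrpl46 (chr7:85920227-85927975) had 6, 6.5, 7 and 8. Mrpl52 (chr14:55045746-55048587) had 8, 9, 9 and 8. Mrps2, the S2 homologue (chr2:28323586-28326697), had 8, 9, 8 and 6. Height and call did not always go together. In Mrpl46, Mrpl52 and Mrpl40 the Parp14+/+ genotype library with the interval was no higher than a Parp14-/- library without it.

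Values for related gene groups are set beside these as a description. Of 22 genes for mitochondrial translation factors, tRNA synthetases and ribosome assembly with an interval in a Parp14+/+ library, the untreated genotype ratio was above 1 in 17 (77.3%) and below 1 in 3 (13.6%), with a median of 1.21 (1.02 to 1.33). Over all genes 51.1% were above 1 and 40.5% below, with a median of 1.04. The median of oxidative phosphorylation genes was 1.09 (1.00 to 1.25) and that of cytosolic ribosomal protein genes 1.18 (1.09 to 1.24), beside 0.96 for the mitochondrial ribosomal set. With PJ34 the medians were 1.14, 1.14 and 0.94. The group closest in function, 7 mitochondrial ribosomal genes under other names, had medians of 1.125 (0.53 to 1.53) without and 1.31 (1.05 to 1.57) with PJ34, where all 7 were above 1. Of all genes 66.2% were above 1 with PJ34, and their median was 1.16. Above 1.4 in the untreated pair were 4 of 22, 13 of 55 and 16 of 75 genes, and below 0.7 were 0, 2 and 1. These were 18.2%, 23.6% and 21.3% above, where 13.2% of all genes were, and 0%, 3.64% and 1.33% below, where 9.05% were.

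Further genes of the mitochondrial ribosome stood outside the set. By transcript accession the table held 72 Mrpl and Mrps genes. Of the 25 not included, 23 had no interval in a Parp14+/+ library, and 17 of these had none in any of the 4 libraries, with heights between 2 and 17. The other 2, Ict1 and Mrp63, are the large-subunit proteins now named Mrpl58 and Mrpl57, and their older symbols kept them out. Ict1 had heights of 20, 21, 38 and 16, highest in untreated Parp14-/-, and Mrp63 had 15, 16, 10 and 11, higher in both Parp14+/+ libraries.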

How the data were processed

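RNA Polymerase II phosphoserine 2 ChIP-Seq was performed by the authors on 4 Th2 cultures (Parp14+/+ and Parp14-/-, with and without PJ34), 1 library each, with an Input library. The authors used ELAND for alignment to mm9, discarded duplicate reads, brought all libraries to an equal number of alignments and called intervals with SICER against Input. The deposited signal per gene is the average peak height over active regions, which are intervals merged over 8 libraries. The 8 columns of 4 other libraries were not used. Precision is limited by the heights, mostly under 15 fragments.

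Genes were grouped by the sample labels. Symbols were checked against transcript accessions (RefSeq, GRCm38.p6, names only) and GENCODE vM1 on NCBIM37, the assembly of mm9, and all 47 matched both. Ratios had no pseudocount and bounds of 1.4 and 0.7, with Clopper-Pearson intervals (scipy 1.17.1, Python 3.11.15), run on simulated counts. Those counts were drawn from the model that the interval assumes, so they check the computation and not its fit to peak heights. Medians carry order-statistic intervals. Alternatives were another library scaling, a wider gene filter, a minimum height, other bounds, other measures, and subsets without shared values or regions. Named genes were the 8 highest, those past a bound in both genotype pairs, the 4 highest and 4 lowest ratios of each genotype pair with a summed height of 20 or more, and those without an interval in either Parp14-/- library. Others are listed where a count is small or a feature singles them out. The members and gene lists were chosen with earlier results of these data known.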

Additional observations from a re-analysis of the deposited data

Results flagged for a closer look

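In Mrpl21, Mrpl24 and Mrps26 the Parp14+/+ to Parp14-/- ratio of average peak height was below the lower bound without PJ34 and above the upper bound with PJ34, and the difference was not tested, since each condition had 1 library. For Mrpl21 the ratio was 0.684 without and 1.92 with PJ34. Mrpl21 entered the set only through its interval in Parp14+/+ + PJ34, where its height was greatest, so the criterion for entry favours the second ratio. For Mrpl24 it was 0.692 and 1.5, in a region shared with Hdgf and Isg20l2. The tallest summits in Parp14+/+ + PJ34 and Parp14-/- lay past the end of Mrpl24, so these ratios do not describe signal on that gene. For Mrps26, which shares no region, it was 0.556 and 1.60. Of all genes 1.90% lay past opposite bounds in the 2 pairs. The counting interval of each of these ratios held 1.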

How the results depend on the processing

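No paired analysis was possible because each condition had 1 library, and none could be left out. Pairs are given in the order genotype untreated, genotype with PJ34, PJ34 in Parp14+/+ and PJ34 in Parp14-/-, with counts above and below the bounds. Among the recomputed values 58 stayed close to those reported and 46 moved. Scaling the libraries to a median ratio of 1 over all genes, which lay at 1.04, 1.16, 0.96 and 1.08, moved the median with PJ34 to 0.930, with 9 above and 8 below, the number above for PJ34 in Parp14+/+ to 5, and the median for PJ34 in Parp14-/- to 0.961. With PJ34 the share above 1.4 was then 19.1% in the set and 12.5% over all genes, and that below 0.7 was 17.0% and 10.8%. For PJ34 in Parp14+/+ the share above 1.4 was 10.6% in the set and 9.34% over all genes. Without the 19 genes that had the values of an adjacent gene, 3 were above and 3 below in the untreated pair, 1 was below with PJ34, 1 was above for PJ34 in Parp14+/+, and 3 were below for PJ34 in Parp14-/-. In that order the shares were 10.7%, 10.7%, 3.57%, 3.57% and 10.7% of the set. Over all genes so filtered they were 12.9%, 8.66%, 4.29%, 6.32% and 5.36%. With summed heights of 20 or more, 2 were below in the untreated pair, 6 above and 1 below with PJ34, 4 below for PJ34 in Parp14+/+, and 3 above and 2 below for PJ34 in Parp14-/-. These were 8.33%, 27.3%, 4.55%, 16%, 15% and 10% of the set, where 9.69%, 21.1%, 4.75%, 8.13%, 14.0% and 3.90% of all genes were. With the tallest interval over the gene, 3 were above in the untreated pair, the median with PJ34 was 0.95 with 3 above, 5 were below for PJ34 in Parp14+/+, and 2 above for PJ34 in Parp14-/-. The shares of the set were 13.6%, 16.7%, 20% and 10.5%, where 16.9%, 23.0%, 11.4% and 18.8% of all genes were. With bases covered, the untreated median was 1.08, 8 were above and 1 below with PJ34, the median for PJ34 in Parp14+/+ was 1.22 with 8 above and 0 below, and that for PJ34 in Parp14-/- was 1.26 with 1 below. The counts were 44.4%, 5.56%, 32%, 0% and 5.26% of the set, where 33.4%, 13.8%, 30.4%, 13.1% and 16.5% of all genes were. With bounds of 1.2 and 0.83, 11 were above and 11 below in the untreated pair, 9 below with PJ34, 8 above and 15 below for PJ34 in Parp14+/+, and 17 above and 10 below for PJ34 in Parp14-/-. In the set these were 23.4%, 23.4%, 19.1%, 17.0%, 31.9%, 36.2% and 21.3%. Over all genes the same bounds gave 28.9%, 22.1%, 11.9%, 17.9%, 26.9%, 32.8% and 14.8%. In the 7 genes that share no region, a subset chosen after seeing the data, 1 was above and 1 below in the untreated pair, 3 above and 1 below with PJ34, the median for PJ34 in Parp14+/+ was 0.839 with 0 above and 2 below, and that for PJ34 in Parp14-/- was 1.24 with 1 above and 2 below. Among all genes that share no region the shares, in that order, were 14.6%, 10.5%, 27.3%, 6.13%, 7.17%, 14.3%, 15.8% and 7.68%. Apart from the subsets and bounds, which change the counts by their construction, the cause was not tested. Heights near 10 fragments leave counting intervals that hold 1 for most genes.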
